A study of Sus scrofa with 16 samples.

Results

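Genes of fatty acid oxidation and ketogenesis and target genes of the peroxisome proliferator-activated receptors (PPARs) were examined in the livers of 16 pigs fed 1 of 3 fats. The genes were given as 38 symbols grouped by function, a choice made with earlier results of these data known, and 37 of them were found among the 25880 gene identifiers counted in each pig. The symbol without an identifier was ECI1, a mitochondrial enoyl-CoA isomerase. Of the 37 genes, 21 belong to mitochondrial oxidation, 9 to peroxisomal oxidation, 2 to ketogenesis and 4 to PPAR targets of other function, and ACOT12 encodes a cytosolic enzyme that splits acetyl-CoA.

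The pigs were crossbred fatteners, out of (Polish Landrace x Polish Large White) sows by (Duroc x Pietrain) boars. They were penned individually and were fattened until they weighed 118 kg, having started near 60 kg. Diets were balanced for energy and protein, and only the kind of fat in them differed. Group R received rapeseed oil (3 gilts and 2 barrows), group B received beef tallow (2 gilts and 3 barrows) and group C received coconut oil (3 gilts and 3 barrows). No group went without added fat, so each difference is between 2 fats. Each pig gave 1 library of 3′ mRNA ends from its liver, and R1 to R5, B1 to B5 and C1 to C6 name the pigs by group and replicate number.

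In the mitochondrion, a fatty acid is first activated to its CoA ester, carried across the membranes as a carnitine ester and then shortened by repeated cycles of dehydrogenation, hydration, dehydrogenation and thiolysis. Peroxisomes shorten very long and branched chains by a parallel set of enzymes, and the liver turns surplus acetyl-CoA into ketone bodies. PPARA, a nuclear receptor that binds fatty acids, is the main activator of these genes in hepatocytes, and the liver of the pig is known for making few ketone bodies.

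On genes, 705669 to 1767671 reads were counted in a pig (median 1018321.5), and 6925 to 20061 of these fell on the 37 genes. Reads outside any annotated gene made up 15.9% to 30.1% per pig, and the share of reads with several alignments averaged 26.5%, 23.9% and 22.6% in groups R, B and C. The smallest two-sided exact permutation p for either share in any pair of diets was 0.183. The markers of the labelled tissue were present, and the 10 hepatocyte markers summed to between 68077 and 191866 counts per 1000000 reads (CPM), although SERPINA1 stayed under 10 reads in each pig. The 6 adipocyte markers summed to 5.17 to 22.6 CPM, with LEP at 0 reads in all pigs. Pig B3 stood apart within its group, being the lowest of its group for 30.2% and the highest for 29.1% of all genes tested.

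The share of reads on genes that the 37 genes took was 1.09% ± 0.077 for rapeseed oil (SD, n = 5), 0.996% ± 0.0527 for beef tallow (SD, n = 5) and 1.10% ± 0.0916 for coconut oil (SD, n = 6). Group B had the lowest mean share, but the differences did not pass the test. The two-sided exact permutation p was 0.0635 for R vs. B, 0.851 for R vs. C and 0.0606 for B vs. C, or 0.0952, 0.851 and 0.0952 after adjustment over the 3 pairs.

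CPT1A and FABP1 differed between group R and group B, in opposite directions. CPT1A, which encodes the carnitine palmitoyltransferase that controls the entry of long chains into mitochondria, was higher in group B, and FABP1, the liver fatty acid-binding protein, was lower. They were 2 of 33 members tested (6.06%), while an edgeR adjusted p under 0.05 was reached by 70 of all 6318 genes (1.11%), with 0.649% higher and 0.459% lower in group B. These shares are no independent comparison, since the members were chosen with earlier results known. FABP1 also had no annotated symbol and entered by an identifier from the study, which names FABP1 as a gene that differed between diets. DESeq2 gave the same 2 members, and 188 of the 5808 genes to which it gave an adjusted p (3.24%). The 2 diet groups did not overlap for 2 of 33 members (6.06%), the same CPT1A and FABP1, and for 4.57% of all genes. At an unadjusted p under 0.05, a looser criterion, there were 7 members (21.2%) against 15.0% of all genes. CPT1A and PDK4 were the higher ones in group B (8.33% of all genes) and ACADL, DECR1, ACOX2, ACAT1 and FABP1 the lower ones (6.66%). The other 26 members tested had no unadjusted p under 0.05.

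For group R vs. group C, 0 of 33 members tested passed by edgeR, where 0.138% of all 6528 genes did, and 4 members (12.1%) had an unadjusted p under 0.05 against 13.0% of all genes. CPT1A and ANGPTL4 were the higher ones in group C (6.45% of all genes) and ACADSB and ACOT12 the lower ones (6.53%). With DESeq2, 1 member of 31 with an adjusted p passed, CPT1A, where 93 of the 3565 genes with an adjusted p did (2.61%). For group B vs. group C, 0 of 34 members tested passed by edgeR, where 0.0587% of all 6812 genes did, and 5 members (14.7%) had an unadjusted p under 0.05 against 11.5% of all genes. These were DECR1, FABP1 and ANGPTL4, higher in group C (5.24% of all genes), and CPT2 and ACOT12, lower in group C (6.21%). With DESeq2, 1 member of 26 with an adjusted p passed, FABP1, where 53 of the 2156 genes with an adjusted p did (2.46%). No member separated groups R and C or groups B and C without overlap, while 1.46% and 1.45% of all genes did.

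Across the members, the median log2 fold change was -0.09 in R vs. B, -0.06 in R vs. C and 0.15 in B vs. C, where all genes tested had medians of 0.011, -0.0011 and -0.0045. A log2 fold change is positive here when the level is higher in the diet named last. The median size of the change without its sign was 0.27, 0.19 and 0.20 for the members and 0.25, 0.20 and 0.23 for all genes. Of the members tested, 14 of 33, 14 of 33 and 21 of 34 had a positive log2 fold change in these pairs.

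**Figure D1:**
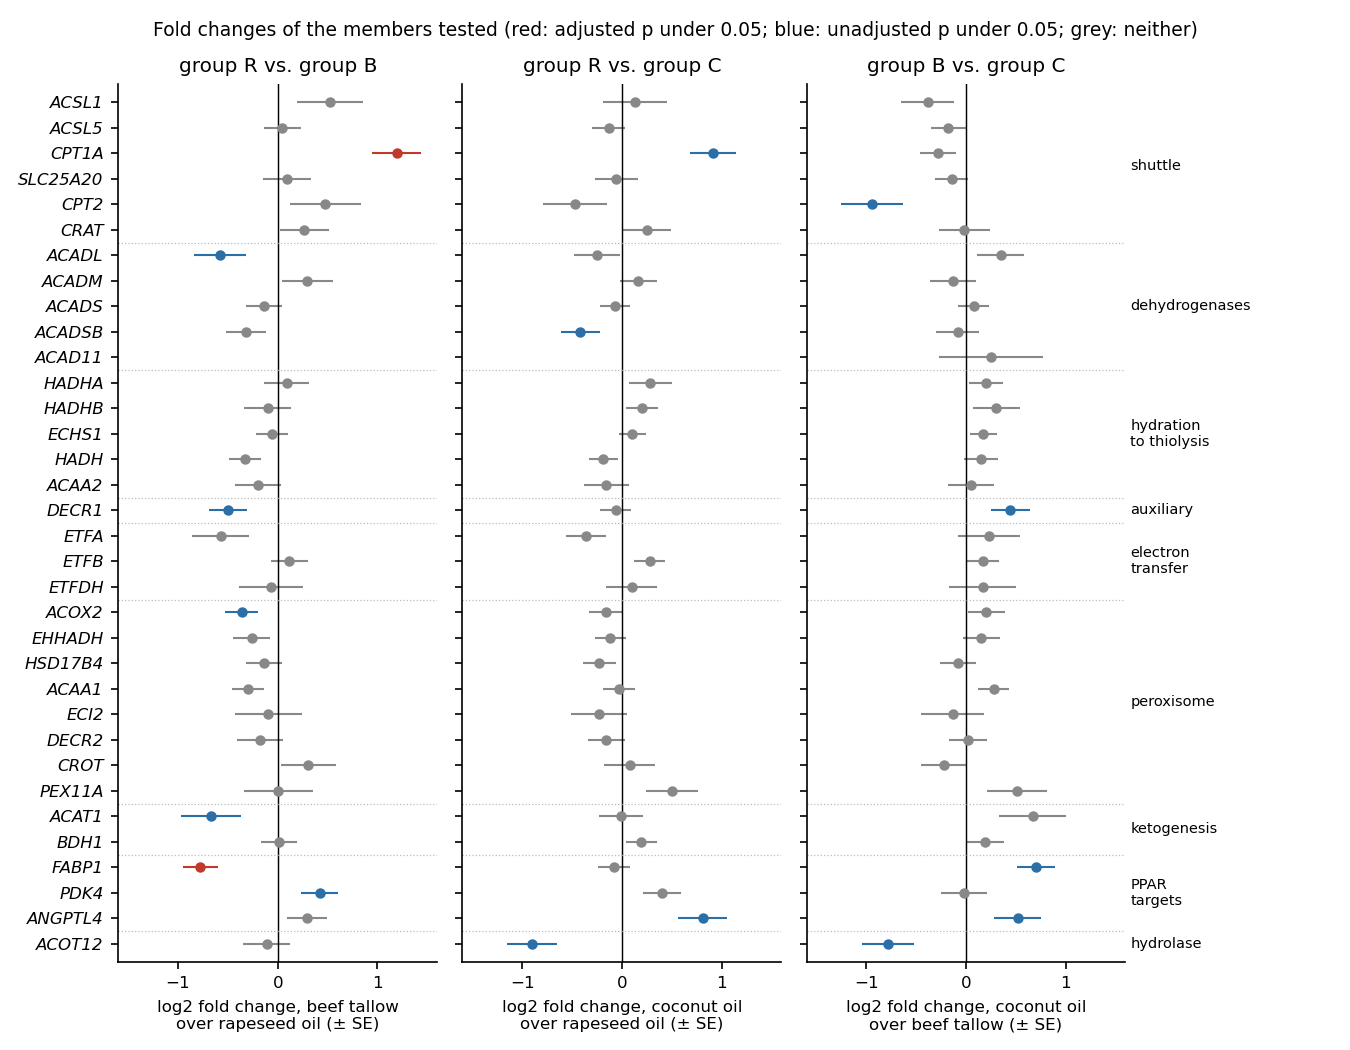
Log2 fold change (horizontal axis, ± SE) of each member tested (rows, grouped by role) in group R vs. group B, group R vs. group C and group B vs. group C, with the diet named last over the diet named before it. Red points had an edgeR adjusted p under 0.05, blue points only an unadjusted p under 0.05. CPT1A and FABP1 are the 2 red points, both in group R vs. group B, at 1.20 and -0.78.

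The carnitine shuttle and the activation step before it comprised 6 members, and CPT1A was the only 1 that passed in any pair. CPT1A (ENSSSCG00000012880, chromosome 2, 4250642 to 4293914) had normalised read counts of 90.5, 92.3, 53, 168 and 127 CPM in the pigs R1 to R5. In B1 to B5 the counts were 313, 222, 245, 228 and 209 CPM, so each pig of group B lay above each pig of group R. In group C the lowest, median and highest counts were 140.3, 199 and 264 CPM, and 5 of the 6 pigs lay above all of group R. The means of groups R, B and C were 106 ± 43.3, 243 ± 40.8 and 200.1 ± 43.2 CPM (SD, n = 5, 5 and 6). CPT1A rose in group B against group R with a log2 fold change of 1.20 (SE 0.25, edgeR adjusted p = 0.0305), or 2.29-fold. In R vs. C, with the level higher in group C, the log2 fold change was 0.92 (SE 0.23, edgeR adjusted p = 0.104), which did not pass by edgeR but did by DESeq2 (DESeq2 adjusted p = 0.0148). Both comparisons use the same 5 pigs of group R, and between groups B and C the log2 fold change was -0.28 (SE 0.18, edgeR adjusted p = 0.567).

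Gilts averaged 117 CPM of CPT1A and barrows 89.9 CPM in group R, 279 and 219.7 CPM in group B and 199 and 201 CPM in group C, so group B lay above group R in both sexes. In fits that each lacked 1 pig, the log2 fold change of CPT1A in R vs. B stayed between 1.03 and 1.42, and it passed in 2 of 10 fits, without R4 or without B3. In the other 8 fits the edgeR adjusted p lay above the threshold, up to 0.0882.

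The other 5 members of the shuttle did not pass in any pair. ACSL1, which activates long chains, averaged 428 ± 253, 615 ± 186 and 469 ± 182 CPM in groups R, B and C. Its partner ACSL5 averaged 74.9 ± 13.4, 77.3 ± 13.4 and 68.1 ± 10.7 CPM, and SLC25A20, the carrier of acylcarnitines across the inner membrane, averaged 48.9 ± 16.6, 52.4 ± 7.58 and 47.4 ± 6.01 CPM. CRAT, the acetyltransferase for short chains, averaged 46.9 ± 13.9, 56.1 ± 16.4 and 55.5 ± 19.2 CPM. For these 4 genes the ranges of mean ± SD overlapped in each pair of diets. In R vs. B the 6 members of the step all had a positive log2 fold change, from 0.05 for ACSL5 to 1.20 for CPT1A with a median of 0.37, where 51.5% of all genes tested were positive. In B vs. C all 6 were negative, from -0.95 for CPT2 to -0.02 for CRAT, with a median of -0.23, and the 5 pigs of group B enter both comparisons. In R vs. C 3 were positive and 3 negative, with a median of 0.04.

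CPT2 (ENSSSCG00000003851, chromosome 6, 159038129 to 159061327), which turns acylcarnitines back into CoA esters inside the mitochondrion, varied widely between pigs of the same diet. Its counts were 78.7, 58.5, 31.0, 151 and 79.7 CPM in R1 to R5 and 126, 64.7, 104, 197 and 67.5 CPM in B1 to B5. In group C they were 23.1 CPM at the lowest, 59.6 at the median and 85.9 at the highest. Groups B and C overlapped, with 3 of 6 coconut oil pigs below all of group B. The log2 fold change in B vs. C was -0.95 (SE 0.31, edgeR adjusted p = 0.292), in R vs. B 0.48 (SE 0.36, edgeR adjusted p = 0.562) and in R vs. C -0.47 (SE 0.32, edgeR adjusted p = 0.572).

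**Figure D2:**
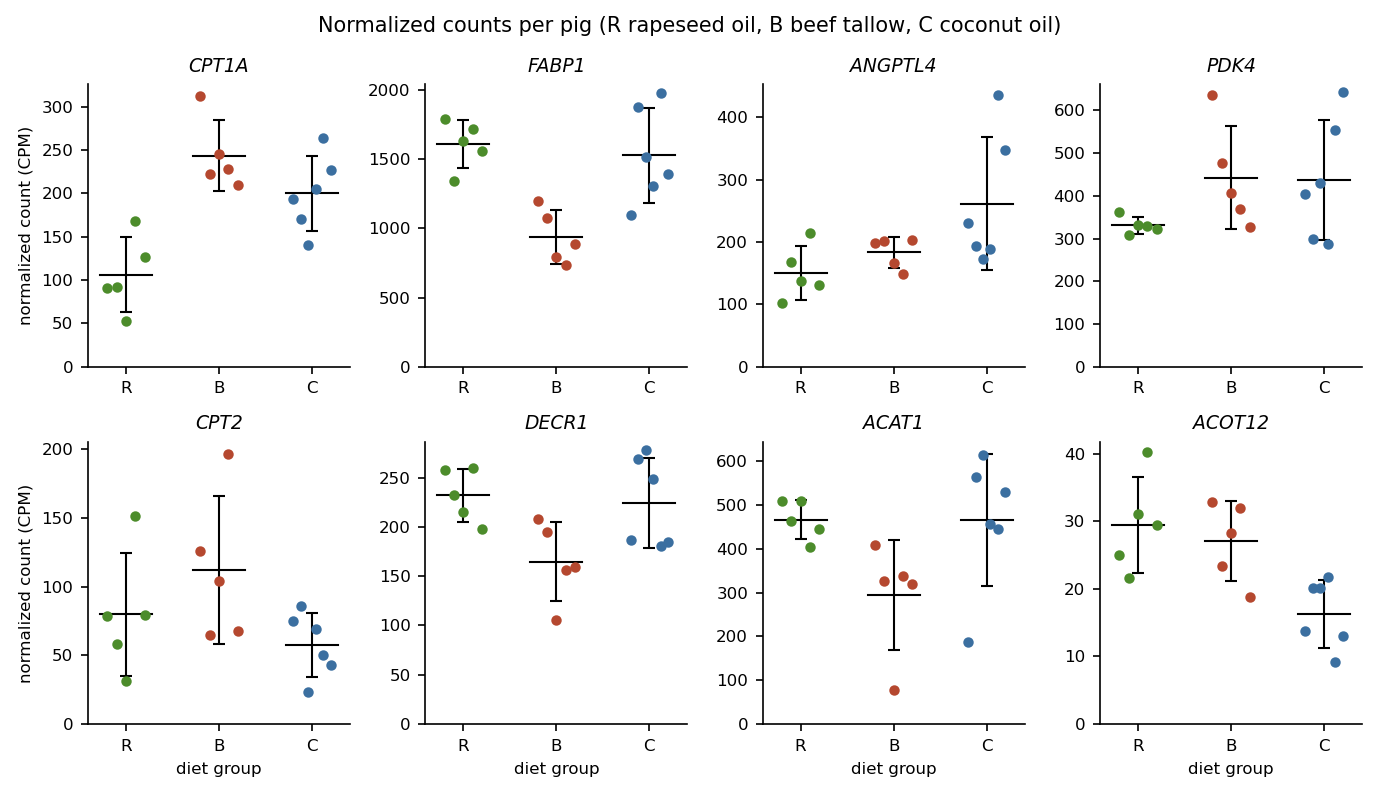
Normalised read counts (CPM, vertical axis from 0) of 8 members in each pig of groups R, B and C, with the mean (bar) and SD (error bar). CPT1A and FABP1 separate groups R and B without overlap, while the groups overlap in each pair of diets for the other 6 genes.

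Of the 6 acyl-CoA dehydrogenases, the enzymes that open each cycle for a given chain length, 4 were tested in all pairs and 0 passed. ACADL (ENSSSCG00000016156, chromosome 15, 112935631 to 112969381), for long chains, had counts of 81.7, 48.2, 54.3, 69.0 and 33.4 CPM in R1 to R5 and 50.4, 31.8, 24.3, 43.6 and 43.1 CPM in B1 to B5, and 35.9, 44.9 and 72.5 CPM at the lowest, median and highest of group C. Its log2 fold change was -0.58 (SE 0.26, edgeR adjusted p = 0.303) in R vs. B, with 2 of 5 beef tallow pigs below all of group R. ACADSB (ENSSSCG00000010723, chromosome 14, 132563002 to 132607574), for short branched chains, had counts of 803, 887, 988, 955 and 609.7 CPM in R1 to R5, 701, 676, 422, 709.7 and 886 CPM in B1 to B5, and 337, 642 and 880.0 CPM at the lowest, median and highest of group C. Its log2 fold change was -0.42 (SE 0.20, edgeR adjusted p = 0.377) in R vs. C and -0.32 (SE 0.20, edgeR adjusted p = 0.472) in R vs. B. Groups overlapped for both genes in all pairs, and the lowest counts of ACADSB in groups B and C were those of B3 and C1.

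ACADM, for medium chains such as those that coconut oil supplies, averaged 436 ± 109.6, 536 ± 194 and 491 ± 100.3 CPM in groups R, B and C. Its log2 fold change was 0.17 (SE 0.19, edgeR adjusted p = 0.777) in R vs. C and -0.13 (SE 0.23, edgeR adjusted p = 0.859) in B vs. C, so neither comparison with group C separated it. ACADS, for short chains, averaged 299 ± 55.1, 272 ± 44.6 and 286 ± 38.5 CPM. ACAD11, a further acyl-CoA dehydrogenase, had 1 to 24 reads per pig and was tested only in B vs. C, with a log2 fold change of 0.25 (SE 0.52, edgeR adjusted p = 0.885). ACADVL, the dehydrogenase for very long chains that sits at the head of the mitochondrial pathway, had only 1 to 6 reads per pig and was not tested. It is not known whether the annotation covers its 3′ end.

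Hydration, the further dehydrogenation and thiolysis are carried out by 5 members, and 0 passed in any pair. HADHA and HADHB, the subunits of the trifunctional protein, lie next to each other on chromosome 3 (112753343 to 112797627 and 112712894 to 112753121). HADHA averaged 123 ± 47.8, 131 ± 15.2 and 149 ± 31.3 CPM in groups R, B and C, and HADHB averaged 114 ± 13.7, 107 ± 38.2 and 131 ± 23.2 CPM. ECHS1, the short-chain enoyl-CoA hydratase, averaged 935 ± 133, 897 ± 95.9 and 1009 ± 46.6 CPM. All 3 means were highest in group C. The log2 fold change of ECHS1 in B vs. C was 0.17 (SE 0.14, edgeR adjusted p = 0.645). In B vs. C all 5 members of the step had a positive log2 fold change, between 0.05 and 0.30, where 49.6% of all genes did.

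HADH, the hydroxyacyl-CoA dehydrogenase for medium and short chains, had counts of 464, 456, 482, 448 and 462 CPM in R1 to R5, a narrow range. In B1 to B5 they were 393, 334, 480.5, 313 and 321 CPM, and 4 of the 5 lay below all of group R. The log2 fold change was -0.33 (SE 0.16, edgeR adjusted p = 0.354) in R vs. B and -0.19 (SE 0.14, edgeR adjusted p = 0.636) in R vs. C. ACAA2, the mitochondrial thiolase, averaged 499 ± 169, 435 ± 113 and 450.2 ± 140.2 CPM in groups R, B and C, with log2 fold changes between -0.20 and 0.05.

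DECR1 (ENSSSCG00000006126, chromosome 4, 46731359 to 46767427) encodes the mitochondrial dienoyl-CoA reductase, which is needed to oxidise polyunsaturated chains. Its counts were 257, 232, 215, 259.6 and 198 CPM in R1 to R5 and 208, 195, 106, 156 and 159 CPM in B1 to B5, and 4 of 5 beef tallow pigs lay below all of group R. In group C they ran from 180.3 CPM through a median of 218 to 278 CPM. The means were 232 ± 26.9, 165 ± 39.9 and 224 ± 45.4 CPM in groups R, B and C. The log2 fold change was -0.50 (SE 0.19, edgeR adjusted p = 0.22) in R vs. B, 0.45 (SE 0.20, edgeR adjusted p = 0.414) in B vs. C and -0.06 (SE 0.16, edgeR adjusted p = 0.915) in R vs. C. Group B had the lowest mean, but none of these differences passed the adjustment.

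Electrons from the dehydrogenases pass through the flavoprotein of ETFA and ETFB to ETFDH and so to the respiratory chain, and none of the 3 genes passed in any pair. ETFA averaged 256 ± 37.2, 172 ± 78.9 and 201 ± 63.9 CPM in groups R, B and C, with a log2 fold change of -0.57 (SE 0.29, edgeR adjusted p = 0.359) in R vs. B. ETFB, its partner subunit, averaged 311 ± 65.4, 336 ± 63.4 and 378 ± 44.6 CPM, with a log2 fold change of 0.28 (SE 0.15, edgeR adjusted p = 0.463) in R vs. C. ETFDH averaged 29.9 ± 7.57, 28.1 ± 15.6 and 31.6 ± 10.5 CPM. The 2 subunits of the flavoprotein had log2 fold changes of opposite sign in R vs. B, -0.57 and 0.12, and that difference between genes was not tested.

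Peroxisomal oxidation had 9 members with an identifier and 8 tested, of which 0 passed in any pair. ACOX2 (ENSSSCG00000011477, chromosome 13, 40220952 to 40255967), the oxidase for branched chains and bile acid precursors, had counts of 212, 192, 151, 209 and 205 CPM in R1 to R5 and 187, 132, 142, 154 and 140.5 CPM in B1 to B5. In group C the lowest, median and highest counts were 130.1, 168 and 236 CPM. The groups overlapped, with 3 of 5 beef tallow pigs below all of group R, and the log2 fold change was -0.36 (SE 0.17, edgeR adjusted p = 0.318) in R vs. B.

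The counts of the other peroxisomal enzymes overlapped between all diets. EHHADH, the bifunctional enzyme for straight chains and a known PPARA target, averaged 1257 ± 159.8, 1048 ± 225 and 1163 ± 216 CPM in groups R, B and C. HSD17B4, its counterpart for branched chains, averaged 575 ± 101, 523 ± 105 and 494 ± 97.1 CPM, and ACAA1, the peroxisomal thiolase, averaged 721 ± 94.8, 587 ± 72.6 and 709 ± 123 CPM. The log2 fold change in R vs. B was -0.26 (SE 0.18, edgeR adjusted p = 0.536) for EHHADH, -0.14 (SE 0.18, edgeR adjusted p = 0.777) for HSD17B4 and -0.30 (SE 0.16, edgeR adjusted p = 0.391) for ACAA1. ECI2 and DECR2, the auxiliary enzymes for unsaturated chains in peroxisomes, averaged 15.7 ± 5.20, 14.3 ± 6.45 and 13.2 ± 4.18 CPM and 70.3 ± 21.4, 62.2 ± 14.6 and 63.7 ± 8.75 CPM. Over the 8 genes, 6 of 8 log2 fold changes were negative in R vs. B (median -0.16) and 6 of 8 in R vs. C (median -0.14), while 5 of 8 were positive in B vs. C (median 0.09), where 51.5%, 49.9% and 49.6% of all genes were positive.

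CROT, which makes carnitine esters of medium chains for export from the peroxisome, averaged 238 ± 96.1, 295 ± 85.3 and 251 ± 77.8 CPM in groups R, B and C. PEX11A, a factor of peroxisome division, averaged 27.6 ± 11.6, 28.2 ± 14.5 and 39.7 ± 11.77 CPM and had a log2 fold change of 0.51 (SE 0.26, edgeR adjusted p = 0.424) in R vs. C and 0.51 (SE 0.30, edgeR adjusted p = 0.527) in B vs. C. Neither passed. ACOT8, the peroxisomal acyl-CoA thioesterase, had 0 to 3 reads per pig, with a read in 7 of 16 pigs and 0 reads in all of group B. At 3 reads per library, the limit that a count of 0 allows here is 1.70 to 4.25 CPM, so ACOT8 could not be compared at this depth.

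Ketogenesis was represented by ACAT1, the thiolase that joins 2 acetyl-CoA, and BDH1, which reduces acetoacetate to 3-hydroxybutyrate. ACAT1 (ENSSSCG00000026153, chromosome 9, 36525266 to 36545634) had counts of 509.8, 464, 508, 405 and 445 CPM in R1 to R5 and 409.6, 326, 78.1, 338 and 321 CPM in B1 to B5. In group C they were 187 CPM at the lowest, 492.7 at the median and 614 at the highest. In group B 4 of 5 pigs lay below all of group R, and the lowest of groups B and C were again B3 and C1. The log2 fold change was -0.67 (SE 0.30, edgeR adjusted p = 0.306) in R vs. B and 0.67 (SE 0.34, edgeR adjusted p = 0.464) in B vs. C. Without B3 and C1 in B vs. C, an alternative chosen after the data were seen, 0 members passed by edgeR. BDH1 averaged 126 ± 10.6, 127 ± 28.7 and 145 ± 27.0 CPM in groups R, B and C, and its log2 fold changes lay between 0.01 and 0.20.

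Of the PPAR targets with other functions that were tested, FABP1 alone passed by edgeR, in R vs. B, where it was lower with beef tallow. FABP1 (ENSSSCG00000008214, chromosome 3, 57850511 to 57854966), which carries fatty acids through the cytosol of the hepatocyte, had counts of 1791, 1339.9, 1631, 1723 and 1558 CPM in R1 to R5. In B1 to B5 they were 1202, 1077, 794, 739 and 887 CPM, all below the lowest pig of group R. In group C the lowest, median and highest counts were 1095, 1454 and 1979 CPM, across the range of group R. The means were 1608 ± 174, 939.9 ± 195 and 1528 ± 342 CPM in groups R, B and C (SD, n = 5, 5 and 6). The log2 fold change was -0.78 (SE 0.17, edgeR adjusted p = 0.0426) in R vs. B, or 0.584 of the level in group R, and -0.08 (SE 0.16, edgeR adjusted p = 0.892) in R vs. C. In B vs. C it was 0.70 (SE 0.19, edgeR adjusted p = 0.21), and that difference passed by DESeq2 alone (DESeq2 adjusted p = 0.021).

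In fits that each lacked 1 pig, the log2 fold change of FABP1 in R vs. B stayed between -0.88 and -0.70, and it passed in 2 of 10 fits, without B1 or without B3. In the other 8 the edgeR adjusted p lay above the threshold, up to 0.119. With sex as a covariate it was 0.0578, although gilts and barrows averaged 1618 and 1595 CPM in group R and 998 and 901 CPM in group B.

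In R vs. B, markers of the cell types of the liver moved in both directions. Of all genes tested in this pair, 1.11% passed by edgeR and 15.0% had an unadjusted p under 0.05. Of 9 hepatocyte markers tested, TTR (transthyretin) fell in group B, with a log2 fold change of -0.78 (SE 0.17, edgeR adjusted p = 0.0426). Another 3 had an unadjusted p under 0.05 and were higher in group B, CPS1 with a log2 fold change of 0.83 (SE 0.20, edgeR adjusted p = 0.0627), ARG1 with 0.77 (SE 0.24, edgeR adjusted p = 0.135) and HNF4A with 0.51 (SE 0.24, edgeR adjusted p = 0.323). For CPS1 the groups did not overlap, and it passed by DESeq2 (DESeq2 adjusted p = 0.00913). The hepatocyte markers summed to 111305 to 166021 CPM in group R, 68077 to 155984 CPM in group B and 99857 to 191866 CPM in group C.

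Of the macrophage markers 1 of 8 tested rose in group B, CD163, with a log2 fold change of 0.79 (SE 0.17, edgeR adjusted p = 0.0414), while the other 7 ran from -0.55 for MARCO to 0.67 for C1QB and did not pass. Of the endothelial markers 1 of 7 tested rose, LYVE1, with 0.88 (SE 0.20, edgeR adjusted p = 0.0495), while the other 6 ran from -0.50 for KDR to 0.81 for FCN2, with 3 of them below 0, and did not pass. With 1 pig left out, TTR, CD163 and LYVE1 each passed in 2 of 10 fits. Of the stellate and perivascular markers 0 of 7 tested passed. ACTA2 with 1.42 (SE 0.55, edgeR adjusted p = 0.224) and LRAT with -0.77 (SE 0.28, edgeR adjusted p = 0.192) had an unadjusted p under 0.05. The others of that list ran from -0.52 for COL1A2 to -0.01 for COL1A1. The 9 macrophage markers summed to 825 to 1374 CPM in group R, 1041 to 2001 CPM in group B and 817 to 1082 CPM in group C, and CSF1R stayed under 10 reads. The 8 endothelial markers summed to 346 to 543 CPM, 478 to 682 CPM and 418 to 674 CPM. The part of these cells in the counts of FABP1 and CPT1A was not tested, and in whole liver, fewer cells of a type and less RNA per cell cannot be told apart.

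PDK4 (ENSSSCG00000015334, chromosome 9, 75246956 to 75260134), the kinase that switches off pyruvate dehydrogenase when fat is burned, had counts of 363, 309, 331, 329 and 323 CPM in R1 to R5. In B1 to B5 they were 635, 476, 407, 369 and 326 CPM, and in group C 288, 417 and 643 CPM at the lowest, median and highest. Group R was narrow, and 4 pigs of each of groups B and C lay above all of it, while 2 pigs of group C lay below all of it. The log2 fold change was 0.42 (SE 0.18, edgeR adjusted p = 0.295) in R vs. B and 0.40 (SE 0.19, edgeR adjusted p = 0.392) in R vs. C, neither of which passed.

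ANGPTL4 (ENSSSCG00000013599, chromosome 2, 70905767 to 70912892), a secreted inhibitor of lipoprotein lipase, had counts of 102, 167, 137, 214 and 132 CPM in R1 to R5 and 199, 202, 166, 149 and 204 CPM in B1 to B5. In C1 to C6 they were 229.8, 194, 173, 189, 436 and 347 CPM. The mean of group C, 261 ± 106 CPM, was raised by C5 and C6, and 3 of 6 pigs lay above all of groups R and B. The log2 fold change was 0.81 (SE 0.25, edgeR adjusted p = 0.179) in R vs. C and 0.52 (SE 0.23, edgeR adjusted p = 0.423) in B vs. C, and the first of these passed where low counts were not filtered (edgeR adjusted p = 0.0337). VNN1, a pantetheinase, had 1 to 12 reads per pig and was not tested.

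ACOT12 (ENSSSCG00000036095, chromosome 2, 89855159 to 89905105), the hydrolase that releases acetate from acetyl-CoA in the cytosol, had few reads, 13 to 43 per pig. Its counts were 25.0, 21.5, 31.0, 40.2 and 29.5 CPM in R1 to R5, 32.9, 23.3, 28.2, 31.9 and 18.8 CPM in B1 to B5 and 13.8, 20.2, 20.1, 21.8, 9.17 and 12.9 CPM in C1 to C6. The coconut oil pigs lay at the low end, with 5 of 6 below all of group R and 3 of 6 below all of group B. The log2 fold change was -0.90 (SE 0.25, edgeR adjusted p = 0.134) in R vs. C and -0.78 (SE 0.26, edgeR adjusted p = 0.292) in B vs. C, and it was -0.11 (SE 0.23, edgeR adjusted p = 0.876) in R vs. B. Neither difference from group C passed by edgeR, and DESeq2 gave no adjusted p for this gene in those pairs.

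**Figure D3:**
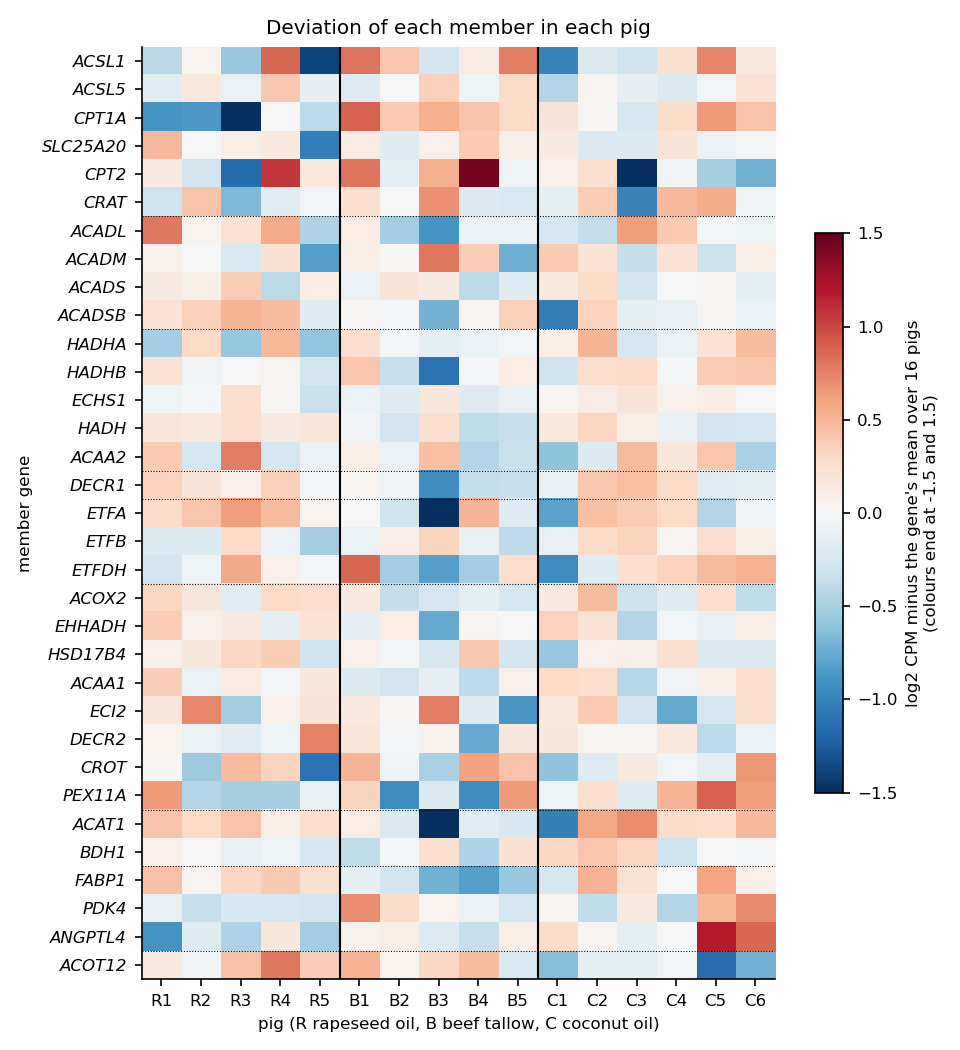
Deviation (colour, log2 CPM minus the mean of the gene over the 16 pigs, colours ending at -1.5 and 1.5) of 33 members (rows, by role) in each pig (columns, by group). CPT1A is low in R1, R2 and R3 and high in all pigs of group B, ACAT1 and ETFA are lowest in B3 and C1, and ANGPTL4 is highest in C5 and C6.

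Over the members together, the ranges of the 3 diets overlapped from pig to pig. Per pig, the median deviation of the members from their means over all pigs ran from -0.11 to 0.14 on the log2 scale in group R, from -0.15 to 0.11 in group B and from -0.12 to 0.25 in group C. For the shuttle it ran from -0.62 to 0.27 in group R, 0.00 to 0.52 in group B and -0.28 to 0.26 in group C. R5 was the lowest of its group for 14 of 33 members (20.9% of all genes tested), C1 for 12 (20.9%) and B3 for 11 (30.2%). B3 was also the highest of its group for 9 members (29.1% of all genes), so both counts of B3 were close to its shares over all genes. The most frequent highest pigs were B1 for 13 members (16.9% of all genes), R1 for 11 (19.2%) and R4 for 10 (23.6%).

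Other genes of these pathways were taken from a list of 119 symbols. This list too was chosen with earlier results of these data known, so its shares are no independent comparison. An identifier was found for 95 genes, and 55 were tested in R vs. B and 60 in each of the other pairs. Of these, 3 of 55 (5.45%) passed in R vs. B, 1 higher and 2 lower in group B, where 1.11% of all genes passed. By edgeR 0 of 60 passed in R vs. C and in B vs. C, where 0.138% and 0.0587% of all genes did. At an unadjusted p under 0.05 there were 17 (30.9%, against 15.0% of all genes) in R vs. B, 16 (26.7%, against 13.0%) in R vs. C and 10 (16.7%, against 11.5%) in B vs. C. BBOX1 and ACSM3 fell in group B, and LPIN2 rose.

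BBOX1 encodes the enzyme of the last step of carnitine synthesis. Its counts were 51.5, 34.9, 59.5, 58.7 and 48.2 CPM in R1 to R5 and 20.6, 30.8, 17.7, 26.6 and 11.06 CPM in B1 to B5, without overlap, and 21.03, 31.7 and 37.9 CPM at the lowest, median and highest of group C. Its log2 fold change was -1.24 (SE 0.26, edgeR adjusted p = 0.0305) in R vs. B and -0.69 (SE 0.19, edgeR adjusted p = 0.139) in R vs. C. In R vs. B CPT1A, which uses carnitine, had the opposite sign.

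ACSM3, an acyl-CoA synthetase for medium chains, had counts of 78.0, 72.8, 37.5, 47.4 and 69.8 CPM in R1 to R5 and 23.7, 38.2, 8.53, 20.2 and 14.4 CPM in B1 to B5. In group C they were 29.9, 46.2 and 67.2 CPM at the lowest, median and highest. Groups R and B overlapped in B2 alone, which lay above R3, and the log2 fold change was -1.57 (SE 0.33, edgeR adjusted p = 0.0305) in R vs. B and 1.17 (SE 0.31, edgeR adjusted p = 0.21) in B vs. C. LPIN2, a phosphatidate phosphatase, had counts of 83.9, 169, 90.5, 157 and 96.4 CPM in R1 to R5 and 297, 194, 222, 309 and 181 CPM in B1 to B5, and 174, 189 and 278 CPM at the lowest, median and highest of group C. All pigs of groups B and C lay above all of group R, with a log2 fold change of 1.01 (SE 0.24, edgeR adjusted p = 0.0495) in R vs. B and 0.81 (SE 0.20, edgeR adjusted p = 0.104) in R vs. C. With 1 pig left out, BBOX1, ACSM3 and LPIN2 each passed in 3 of 10 fits.

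PPARA itself had 0 to 3 reads per pig and was not tested, and it is not known whether the annotation covers its 3′ end. PLIN2, a coat protein of lipid droplets and a PPARA target, averaged 41.1 ± 25.3, 82.6 ± 54.4 and 71.0 ± 54.7 CPM in groups R, B and C. Its log2 fold change was 0.99 (SE 0.42, edgeR adjusted p = 0.267) in R vs. B and 0.82 (SE 0.46, edgeR adjusted p = 0.473) in R vs. C, and it did not pass in any pair.

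**Figure D4:**
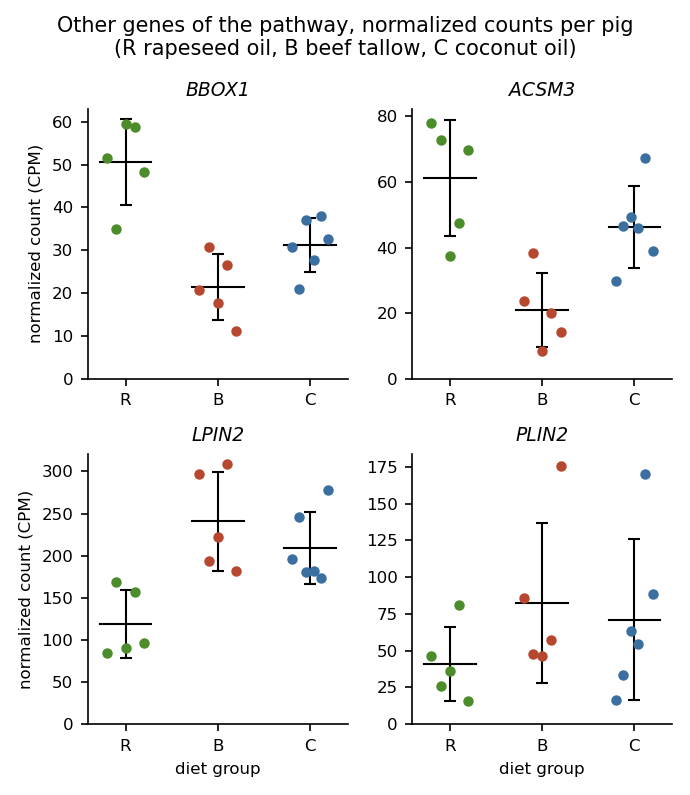
Normalised read counts (CPM, vertical axis from 0) of 4 other genes of the pathways in each pig of groups R, B and C, with the mean (bar) and SD (error bar). BBOX1 and LPIN2 separate groups R and B without overlap, whereas PLIN2 overlaps between all groups.

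Gilts and barrows were compared over all 16 pigs with diet as a covariate. Of 33 members tested 0 passed by edgeR or DESeq2, and 0 had an unadjusted p under 0.05 by either tool. By edgeR 0.0786% of all genes tested passed and 4.9% had an unadjusted p under 0.05. By DESeq2 0.0695% of the genes with an adjusted p passed. The log2 fold changes of barrows over gilts ran from -0.35 to 0.37 over the members, and the smallest edgeR adjusted p was 0.914.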

How the data were processed

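Liver RNA of 16 pigs was sequenced from mRNA 3′ ends (QuantSeq FWD). The authors trimmed and mapped the reads (TopHat) and assigned them to the genes of Ensembl 96 (HTSeq-count). What they deposited are raw counts, not normalized, for 25880 genes. A read counts for a gene only where the annotation covers its 3′ end, and reads with several alignments count for none. Levels are not divided by length, because each transcript gives reads from its end only. The tallies of reads on no gene were left out of library sizes. No 2 of 120 pairs of libraries were identical.

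The members and all gene lists were chosen with earlier results of these data known. Symbols were matched to identifiers for 36 members. FABP1 had no symbol in the annotation used, and its identifier was taken from a supplementary gene table of the study. The study reports FABP1 among its differentially expressed genes, so this entry was not independent of the results. Gene positions come from RefSeq (Sscrofa11.1) by symbol.

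Each pair of diets was fitted on its own over all genes with edgeR 4.0.16 (R 4.3.3) and its quasi-likelihood test, after TMM normalization and filterByExpr (minimum count 10, minimum total 15), with Benjamini-Hochberg adjustment over the genes tested, and calls were made at 0.05 whatever the fold change. The SE is the size of the log2 fold change divided by the square root of F. Levels are TMM-normalized CPM over all 16 pigs. Members with an adjusted or unadjusted p under 0.05 in a pair were named with their values in that pair, other members were given mostly by their means (HADH, outside this rule, also per pig), and other pathway genes were named where the adjusted p was under 0.05, along with PPARA and PLIN2 whatever their values. Some further genes of the pathway list are counted in its totals but are not reported here by name. The scripts were tested on simulated data. Alternatives were DESeq2 1.42.0 (the tool of the study), RLE normalization, no filter, sex as a covariate, a replicate block, all pigs in 1 fit and each pig left out. Intervals for counting error were not computed, and the limit for a count of 0 covers counting error only. The qPCR data of the study were not analysed here.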

Additional observations from a re-analysis of the deposited data

Results flagged for a closer look

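In 7 of 99 tests, with 33 members in 3 diet groups each, a pig lay far from the others of its group in log2 CPM. The measure is the gap to the nearest pig divided by the range of the group, and chance gives about 1 such result in 20. ACAT1 was low in B3 (78.1 CPM, the others 321 to 409.6 CPM, gap 0.852 of the range) and in C1 (187 CPM, the others 446 to 614 CPM, gap 0.731). ACADSB was low in C1 (337 CPM, the others 623 to 879.96 CPM, gap 0.640). ECHS1 was high in B3 (1062 CPM, the others 827 to 887 CPM, gap 0.718) and EHHADH low in B3 (665 CPM, the others 1045 to 1232 CPM, gap 0.734). DECR2 was high in R5 (108 CPM, the others 56.9 to 66.2 CPM, gap 0.765) and low in B4 (37.2 CPM, the others 62.6 to 72.6 CPM, gap 0.777). Of the 7, B3 gave 3, C1 gave 2 and R5 and B4 gave 1 each.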

How the results depend on the processing

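For R vs. B, 2 members passed under DESeq2, RLE, no filter and all pigs in 1 fit, the same CPT1A and FABP1, but only CPT1A (1) with sex as a covariate. With each pig left out, 0 to 2 members passed, both without B3, CPT1A without R4, FABP1 without B1 and 0 in the other 7 fits. Of all genes, 188 passed with DESeq2, 190 without a filter and 9 to 149 with a pig left out (fewest without R5, most without B3), against 70. For R vs. C, 1 member passed with DESeq2 (CPT1A), 2 without a filter (CPT1A and ANGPTL4), and 0 to 1 with a pig left out (CPT1A without R4). Of all genes, 93 passed with DESeq2, 82 without a filter and 3 to 27 with a pig left out, against 9. For B vs. C, 1 member passed with DESeq2 (FABP1) and 0 with any pig left out. Of all genes, 53 passed with DESeq2, 22 without a filter, 8 with all pigs in 1 fit and 4 to 9 with a pig left out, against 4. DESeq2 gave an adjusted p to 2156 genes in that pair. The cause of these shifts was not tested.

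Replicate numbers are shared between the diets, and the labels name no pairing of the pigs. Correlations of the deviations of same-numbered pigs ran from -0.25 to 0.14, which cannot decide whether a pairing existed. With the replicate number as a block, 0 members and 35 genes passed in R vs. B. The median log2 fold change of members in R vs. C turned from -0.056 to 0.014 without R5. Among the 6 alternatives that left no pig out of R vs. B, ACSM3 passed in 6, BBOX1 in 5 and LPIN2 in 4. LPIN2 was lost with RLE normalization, for example (edgeR adjusted p = 0.0529). No result changed its direction among the 19 single-gene results recomputed. These were members with an unadjusted p under 0.05 and pathway genes with an adjusted p under 0.05, so a stable direction was likely from the start. Members outside this choice could change sign with 1 pig left out, such as ACSL1 in R vs. C (log2 fold change -0.07 to 0.52). Members under about 10 reads per pig could not be compared here. Whether the annotation covers their 3′ ends was not tested, so few reads need not mean few transcripts.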

Other observations

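The values below were picked after they were seen and were not tested. C5 and C6 were the 2 highest of the 6 coconut oil pigs for CPT1A, PDK4, ANGPTL4, PEX11A and PLIN2 and the 2 lowest for ACOT12. In C5 and C6, CPT1A was at 264 and 227 CPM, PDK4 at 554 and 643 CPM, PEX11A at 56.9 and 47.3 CPM and PLIN2 at 171 and 88.4 CPM. These genes are a selection, and genes of other roles had the same order. HADHB (150 and 152 CPM) and ETFDH (39.7 and 41.1 CPM) were also highest in C5 and C6, and HADH (334 and 338 CPM) was lowest. C5 and C6 were also the deepest libraries, with 1659936 and 1767671 reads on genes.

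B3 and C1 were the lowest pigs of their groups for ACAT1, ETFA, ETFDH, ACADSB and ACAD11, and also for ACSL1, HADHB and CROT. Over all genes tested, B3 was the lowest of its group for 30.2% and C1 for 20.9%. ACSL1 was at 374 CPM in B3 and 231 CPM in C1, HADHB at 52.5 and 93.0 CPM and CROT at 176 and 162 CPM. ETFA was at 58.4 CPM in B3 and 112 CPM in C1, ETFDH at 15.1 and 13.8 CPM and ACAD11 at 0.656 and 1.62 CPM. CPT1A and FABP1 were not lowest in B3, and in C1 FABP1 was the lowest of its group at 1095 CPM.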
